A study of Mus musculus with 6 samples.

Results

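The MAP kinase phosphatases are 10 dual-specificity phosphatases that remove phosphate from both the threonine and the tyrosine of activated MAP kinases. Their genes, Dusp1, Dusp2, Dusp4, Dusp5, Dusp6, Dusp7, Dusp8, Dusp9, Dusp10 and Dusp16, were taken by gene name from 54532 genes measured by RNA-seq in mouse back epidermis, and all 10 were found. The knockout (3 samples) had the genotype Spry1flox/flox K14-Cre-ERT2, in which tamoxifen activates a Cre recombinase driven by the keratin 14 promoter of basal keratinocytes. The control (3 samples) was Spry1flox/flox without Cre. Tamoxifen was gavaged in both genotypes at 0.1 mg/g, with 4 doses weekly over 4 weeks. Spry1 encodes Sprouty1, which restrains signalling from receptor tyrosine kinases to ERK. No sample had Cre without the floxed gene, so Cre activity and Spry1 loss cannot be told apart, and cells outside the keratin 14 lineage are not targeted by this Cre. The sources used here give neither age nor strain.

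MAP kinase cascades end in ERK, JNK or p38, and the phosphatases switch these kinases off. The family is usually split by location and substrate. Dusp1, Dusp2, Dusp4 and Dusp5 are nuclear proteins whose genes are induced rapidly by growth factors or stress. Within that class Dusp5 is specific for ERK, while Dusp1 acts strongly on JNK and p38 as well. Dusp6, Dusp7 and Dusp9 are cytoplasmic and prefer ERK, and Dusp6 transcription is itself switched on by ERK, which makes it a common readout of that pathway. Dusp8, Dusp10 and Dusp16 prefer JNK and p38. In a keratinocyte, ERK signalling is known to favour proliferation, and JNK and p38 to respond to stress and inflammation.

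Levels are the authors' FPKM (fragments corrected for exon length and library depth), so that genes of different length can be compared. Reads recovered from these values summed to 18383323 to 21024715 per sample. Spry1 itself had 1.06, 1.49 and 1.28 FPKM in the knockout samples, against 25.8, 28.2 and 34.4 FPKM in the control samples. Keratinocyte keratins (Krt5, Krt14, Krt1, Krt10) summed to 21410 to 26970 FPKM in the knockout samples and 11240 to 13670 FPKM in the control samples, so the labelled tissue had its defining markers. Of these 4 keratins, 3 were higher in the knockout without overlap and Krt10 was lower. Over all genes tested further on, 34.9% lay higher and 29.4% lower without overlap. Knockout replicate 2 had 19.25 FPKM of the Y-linked Eif2s3y and 1.31 FPKM of Xist, whereas the other 5 samples had at most 0.203 FPKM of Eif2s3y and at least 20.0 FPKM of Xist. Control replicate 3 stood apart in stress genes, with 617 FPKM of Atf3 against 48.3 and 119 FPKM in the other controls. Nothing in the labels ties each sample to its own animal, and the p-values below cover only the spread between samples, which may be technical. In bulk tissue, fewer cells of a type and less RNA per cell cannot be told apart.

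Bases just upstream of the RefSeq transcription start are shown for 5 members, because these differ in how they moved between the genotypes and in which known response elements they hold. By the test given further on, Dusp1 fell, Dusp6 and Dusp7 rose, and Dusp5 and Dusp8 did not pass the test. Each run covers bases 250 to 51 before the RefSeq start, read 5′ to 3′ on the gene's own strand (RefSeq, GRCm38.p6), and ends short of the start because some annotated first exons reach into the last 50 bases. Capitals mark every match to the motifs searched. The windows are chr17:26508523-26508722 (minus strand) for Dusp1, chr7:142095335-142095534 (minus) for Dusp8, chr19:53528895-53529094 (plus) for Dusp5, chr10:99262981-99263180 (plus) for Dusp6 and chr9:106368382-106368581 (plus) for Dusp7.
Dusp1: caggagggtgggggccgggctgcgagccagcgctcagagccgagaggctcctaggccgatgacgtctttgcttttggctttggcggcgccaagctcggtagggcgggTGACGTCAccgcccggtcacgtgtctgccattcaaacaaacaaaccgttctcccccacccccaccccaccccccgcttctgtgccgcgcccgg
Dusp8: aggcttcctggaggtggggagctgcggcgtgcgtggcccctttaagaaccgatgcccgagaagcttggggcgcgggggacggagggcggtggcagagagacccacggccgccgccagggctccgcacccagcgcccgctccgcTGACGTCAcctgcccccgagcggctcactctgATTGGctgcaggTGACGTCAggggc
Dusp5: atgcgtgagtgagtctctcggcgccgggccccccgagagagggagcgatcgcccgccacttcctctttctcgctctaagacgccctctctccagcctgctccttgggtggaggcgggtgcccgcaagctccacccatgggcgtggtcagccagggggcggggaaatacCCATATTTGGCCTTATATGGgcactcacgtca
Dusp6: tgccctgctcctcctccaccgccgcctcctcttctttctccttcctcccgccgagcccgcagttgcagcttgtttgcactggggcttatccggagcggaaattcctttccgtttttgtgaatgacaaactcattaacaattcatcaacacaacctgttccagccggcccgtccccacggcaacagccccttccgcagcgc
Dusp7: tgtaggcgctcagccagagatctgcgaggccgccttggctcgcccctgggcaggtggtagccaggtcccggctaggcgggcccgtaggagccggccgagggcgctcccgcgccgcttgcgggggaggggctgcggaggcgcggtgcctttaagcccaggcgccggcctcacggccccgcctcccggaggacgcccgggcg

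In GENCODE M21 (GRCm38) the genes lie on chromosome 17 (Dusp1), chromosome 2 at 127336159 to 127338376 (Dusp2), chromosome 8 at 34807297 to 34819894 (Dusp4) and chromosome 19 at 53529109 to 53542431 (Dusp5). Dusp6 lies on chromosome 10 at 99263231 to 99267489, Dusp7 on chromosome 9 at 106368632 to 106375724 and Dusp8 on chromosome 7 at 142079490 to 142095843. Dusp10 lies on chromosome 1 at 184013302 to 184075636 and Dusp16 on chromosome 6 at 134715468 to 134792625. Each member is on a chromosome of its own. The GENCODE spans of Dusp1, Dusp5, Dusp8 and Dusp10 begin upstream of the RefSeq start used for the windows. The windows of Dusp1, Dusp8 and Dusp10 lie inside the annotated gene, while that of Dusp5 ends before its span begins.

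The palindrome TGACGTCA, the cyclic AMP response element, was present once in the Dusp1 window, 143 to 136 bases before the start, and at 2 places in the Dusp8 window. It was found in 0.828% of 32851 RefSeq windows of this length. The Dusp5 window held 2 adjacent CArG boxes, the element bound by serum response factor, between 82 and 63 bases before the start, where 1.16% of all windows had at least one. The Dusp6 and Dusp7 windows matched none of the motifs searched on both strands, each of which most windows lack. The short ETS core GGAA was not searched by itself, and its share over all windows was not counted. On either strand it occurs in the printed windows of Dusp5, Dusp6 and Dusp8. The motifs searched were TGACGTCA, the CArG box, the AP-1 element TGANTCA (in 5.57% of all windows) and the longer ETS site CCGGAA (8.03%). Also searched were the palindromic glucocorticoid response element (0.00913%), the TATA box (TATAAA, 9.14%) and the CCAAT box. The last of these, which reads ATTGG on the other strand, was in 28.4% of all windows and in the windows of 3 of the 8 members that had an entry, namely Dusp8, Dusp10 and Dusp16. Dusp2 had an entry and no match, and Dusp4 and Dusp9 had no entry. Dusp1 and Dusp8 both carried TGACGTCA, and of this pair Dusp1 passed the test between genotypes and Dusp8 did not. The GC content was 77.5% in the Dusp7 window, 68.0% in that of Dusp1 and 58.0% in that of Dusp6, where the median of all windows was 51.5%.

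In the knockout the ERK phosphatase genes Dusp7 (116 ± 8.08 FPKM, SD, n = 3) and Dusp6 (85.2 ± 18.1 FPKM) each had sample ranges that overlapped that of Dusp1 (99.1 ± 61.9 FPKM). In knockout replicate 1 Dusp1 was still the most abundant member. In the control Dusp1 was the most abundant in every sample, at 415 ± 53.8 FPKM (SD, n = 3), followed by Dusp7 at 59.4 ± 9.30 and Dusp6 at 22.3 ± 9.48 FPKM. Of the 9 members with a mean of at least 1 FPKM over all samples, 5 passed the test upward (Dusp2, Dusp4, Dusp6, Dusp7, Dusp9) and 2 downward (Dusp1, Dusp16), by limma on log2(FPKM + 1) with Benjamini-Hochberg adjusted p under 0.05. Over all 12629 genes tested, 29.6% passed upward and 24.4% downward, or 54.0% in either direction, so most tested genes differed and the count of members is to be read against that. Calls split 54.8% upward in all, but 31.5% after TPM scaling and 43.7% after scaling to recovered reads. Dusp2 and Dusp9 reached the filter through their knockout level alone, and Dusp10 missed it through its knockout level, so these counts do not describe the whole family evenly. Groups did not overlap upward for 6 of the 10 members and downward for 3, where 34.9% and 29.4% of tested genes were apart in these directions.

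**Figure D1:**
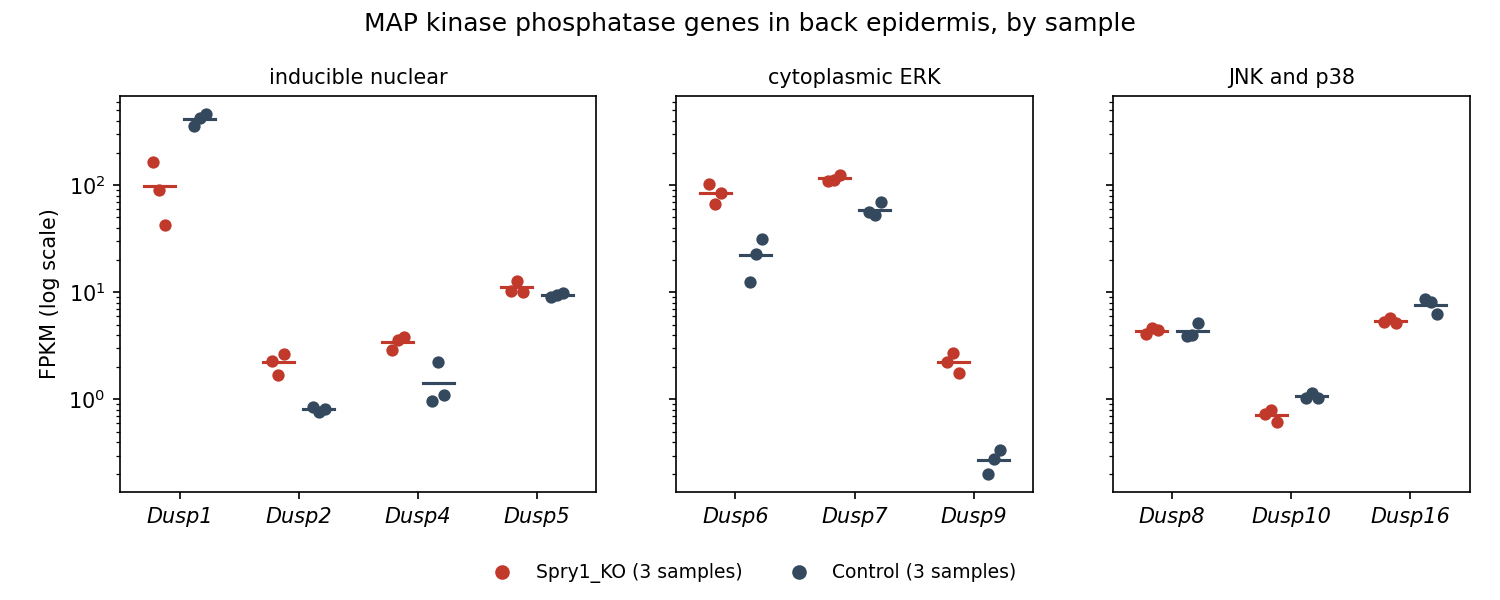
Level of each MAP kinase phosphatase gene in FPKM on a log axis, with 1 point per sample and a bar at the mean of 3 samples, knockout (Spry1_KO) left and control right for each gene, in panels by class. Dusp1 lay at 42.1 to 165 FPKM in the knockout samples and 357 to 462 FPKM in the control samples, and all 3 cytoplasmic ERK phosphatase genes lay higher in the knockout with no overlap.

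Among the inducible nuclear phosphatases, Dusp1, a broad phosphatase of p38, JNK and ERK that limits inflammatory signalling, had 165, 90.2 and 42.1 FPKM in the knockout samples, against 357, 427 and 462 FPKM in the control samples. The knockout samples were all below the controls and differed among themselves more than the controls did, with replicate 3 the lowest. By limma the log2 fold change was -2.25 (SE 0.45, adjusted p = 0.00522). Only 1.32% of tested genes had a lower log2 fold change. With any 1 sample left out the call held, and the log2 fold change lay between -2.72 (without knockout replicate 1) and -1.75 (without knockout replicate 3). The Dusp1 gene spans 26505590 to 26562128 on chromosome 17 in GENCODE M21. It shares 11 exon bases with Ergic1 on the other strand, which had 7.73 to 8.26 FPKM in the knockout samples and 4.80 to 7.21 FPKM in the control samples.

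Dusp2, first known as a phosphatase of activated blood cells, had 2.31, 1.70 and 2.64 FPKM in the knockout samples, against 0.849, 0.764 and 0.820 FPKM in the control samples. These values rest on 93, 59 and 87 recovered reads in the knockout samples and 31, 28 and 32 in the control samples, and the groups did not overlap. Tested only because of its knockout level, Dusp2 rose by 0.82 ± 0.14 (SE) on the log2(FPKM + 1) scale (limma adjusted p of 0.00299). That scale understates low genes. The ratio of the mean FPKM was 2.73, and limma-voom on recovered reads gave a log2 fold change of 1.37. Blood cell markers moved both ways: the 7 T cell markers summed to 19.3 to 35.9 FPKM in the knockout samples and 49.2 to 68.5 FPKM in the control samples, with 4 lower and 1 higher without overlap. The 7 macrophage and neutrophil markers summed to 38.6 to 73.1 FPKM in the knockout samples and 12.6 to 18.7 FPKM in the control samples, with 4 higher and 2 lower. Langerhans cell markers summed to 372 to 553 FPKM in the knockout samples and 981 to 1630 FPKM in the control samples, with 4 of 5 lower. The 3 B cell markers summed to at most 0.264 FPKM in the knockout samples and 0.250 FPKM in the control samples, with 1 of them at 0 throughout. Over all tested genes, 34.9% were apart upward and 29.4% downward. The part of these blood cells in the Dusp2 difference was not tested.

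Dusp4, a nuclear phosphatase of ERK and JNK, had 2.92, 3.60 and 3.82 FPKM in the knockout samples, against 0.961, 2.26 and 1.10 FPKM in the control samples. Control replicate 2 lay well above the other controls and below every knockout sample. By limma the log2 fold change was 0.90 (SE 0.21, adjusted p = 0.00992), and the ratio of mean FPKM was 2.39. The call was lost without control replicate 3 and knockout replicate 2 together (adjusted p of 0.0589, log2 fold change 0.78). Dusp5, the nuclear phosphatase specific for ERK, had 10.3, 12.8 and 10.2 FPKM in the knockout samples and 9.07, 9.49 and 9.83 FPKM in the control samples. The groups lay side by side without overlap, and the log2 fold change was 0.20 (95% interval -0.04 to 0.45, limma adjusted p of 0.139). TPM scaling turned its sign (-0.05), and scaled so, the median of all genes moved by -0.25. Dusp5 shares 547 exon bases with an antisense transcript, AC137853.2, whose reads cannot be told apart without strand information.

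The cytoplasmic ERK phosphatase genes Dusp6 and Dusp7 passed the test upward, as 29.6% of all tested genes did, and so did Dusp9, which was tested only because of its knockout level. Dusp6, the feedback phosphatase of ERK, had 104, 67.4 and 84.6 FPKM in the knockout samples, against 12.6, 22.7 and 31.6 FPKM in the control samples. Every knockout sample was at least 67.4 FPKM and no control sample exceeded 31.6 FPKM. By limma the log2 fold change was 1.96 (SE 0.32, adjusted p = 0.00231). Only 2.15% of tested genes had a higher one. The ratio of mean FPKM was 3.83.

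Dusp7, the most abundant member of its class in either genotype, had 110, 113 and 125 FPKM in the knockout samples, against 56.0, 52.2 and 69.9 FPKM in the control samples. Spread within a genotype was small beside the gap, and the groups did not overlap. By limma the log2 fold change was 0.97 (SE 0.13, adjusted p = 0.0009).

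Dusp9, an X-linked ERK phosphatase best known from placenta, had 2.25, 2.69 and 1.76 FPKM in the knockout samples, against 0.202, 0.281 and 0.339 FPKM in the control samples. The gene lies on chromosome X at 73639419 to 73643514. Behind these values stood 123, 127 and 79 recovered reads in the knockout samples and only 10, 14 and 18 in the control samples. Its ratio of mean FPKM, 8.15, was the largest of the family, while its log2 fold change on the FPKM + 1 scale was 1.34 (SE 0.15, adjusted p = 0.000465 by limma). With a pseudocount of 0.1 the log2 fold change was 2.64, and limma-voom on recovered reads gave 2.95. Without knockout replicate 2, the sample with Y-linked transcripts, Dusp9 fell below the filter and was not tested, and the remaining knockout samples (2.25 and 1.76 FPKM) still lay above every control.

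Of the 3 JNK and p38 phosphatase genes, 2 were tested and none passed upward, where 29.6% of all tested genes did. Dusp16, which acts on JNK and p38, had 5.24, 5.71 and 5.18 FPKM in the knockout samples, against 8.59, 8.21 and 6.26 FPKM in the control samples. Control replicate 3 lay nearest to the knockout samples, and the groups did not overlap. By limma the log2 fold change was -0.44 (SE 0.12, adjusted p = 0.0211), and 22.0% of tested genes had a lower one. Dusp16 lost its call without knockout replicate 1 (adjusted p of 0.0656) or 3 (0.0664) and without control replicate 1 (0.0696) or 2 (0.0674).

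Dusp8, which prefers JNK, had 4.08, 4.62 and 4.49 FPKM in the knockout samples and 3.92, 4.01 and 5.17 FPKM in the control samples. The groups overlapped, and the log2 fold change was 0.01 (95% interval -0.26 to 0.29, limma adjusted p of 0.928). Dusp10, a stress-induced phosphatase of p38 and JNK, had 0.736, 0.796 and 0.619 FPKM in the knockout samples, against 1.03, 1.15 and 1.03 FPKM in the control samples. It stood on 31 to 45 recovered reads in the knockout samples and 57 to 64 in the control samples. Its mean of 0.893 FPKM kept it out of the test, and without the filter its log2 fold change was -0.27 with a limma adjusted p of 0.12. A two-sided exact permutation test gave p = 0.1, the smallest that 3 against 3 samples allow.

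**Figure D2:**
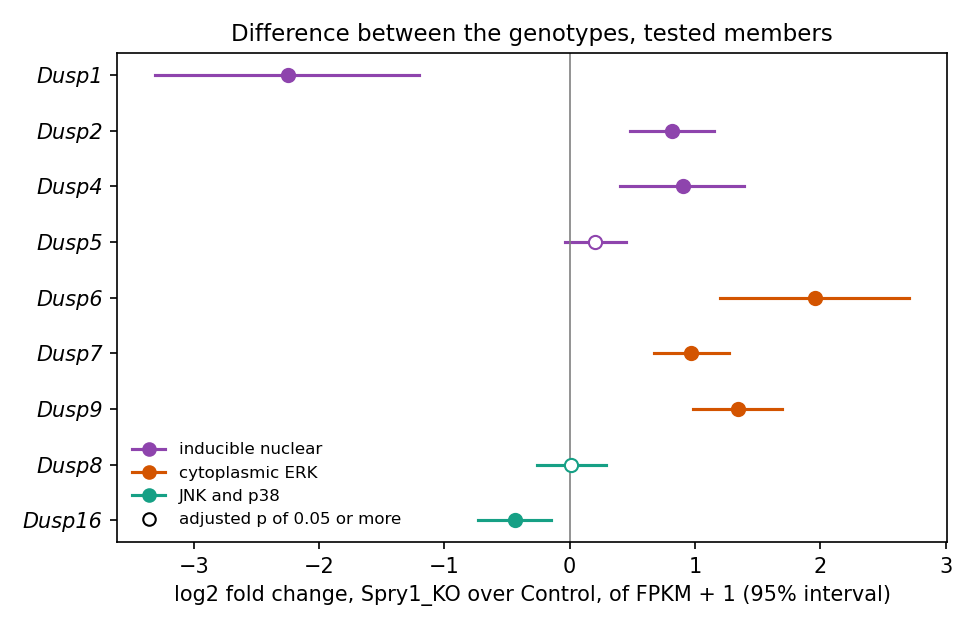
Log2 fold change of FPKM + 1 (x axis, knockout over control) for the 9 tested members, with 95% intervals from limma, coloured by class; open points did not pass the test. The 3 cytoplasmic ERK phosphatase genes lay between 0.97 and 1.96, Dusp1 at -2.25 and Dusp16 at -0.44.

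No test over the 10 genes was made, since they were chosen by name. The nuclear class split, with 2 members called higher, 1 lower and 1 not called. Of the 2 called higher, Dusp2 reached the filter through its knockout level. The cytoplasmic class had 3 of 3 called higher, of which Dusp9 reached the filter through its knockout level. The JNK and p38 class had 1 lower, 1 not called and 1 below the filter. Over all tested genes 29.6% were called higher and 24.4% lower. Summed over its members, the cytoplasmic ERK class had 216, 183 and 212 FPKM in the knockout samples, against 68.8, 75.2 and 102 FPKM in the control samples. The JNK and p38 class summed to 10.1, 11.1 and 10.3 FPKM in the knockout samples, against 13.5, 13.4 and 12.5 FPKM in the control samples. The ratio between these sums does not depend on how samples are scaled, and it was 21.5, 16.4 and 20.6 in the knockout samples, against 5.08, 5.62 and 8.17 in the control samples.

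Without Dusp1 the nuclear class summed to 15.5, 18.1 and 16.6 FPKM in the knockout samples, against 10.9, 12.5 and 11.8 FPKM in the control samples, so the lower nuclear sum of the knockout (116 ± 61.2 FPKM, against 427 ± 54.3 FPKM in the control; SD, n = 3 each) came from Dusp1. Dusp1 alone made up 40.5%, 29.8% and 15% of the summed FPKM of the family in the knockout samples, against 79.3%, 80.9% and 78.6% in the control samples. Dusp6 made up 25.5%, 22.3% and 30.1% in the knockout samples, against 2.80%, 4.29% and 5.36% in the control samples. The Dusp6 level was 0.629, 0.748 and 2.01 times that of Dusp1 in the knockout samples, against 0.0354, 0.0531 and 0.0682 times in the control samples. Dusp7 relative to Dusp6 was 1.06, 1.67 and 1.48 in the knockout samples and 4.44, 2.30 and 2.21 in the control samples, so the gap between both ERK phosphatase genes was narrower in each knockout sample.

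**Figure D3:**
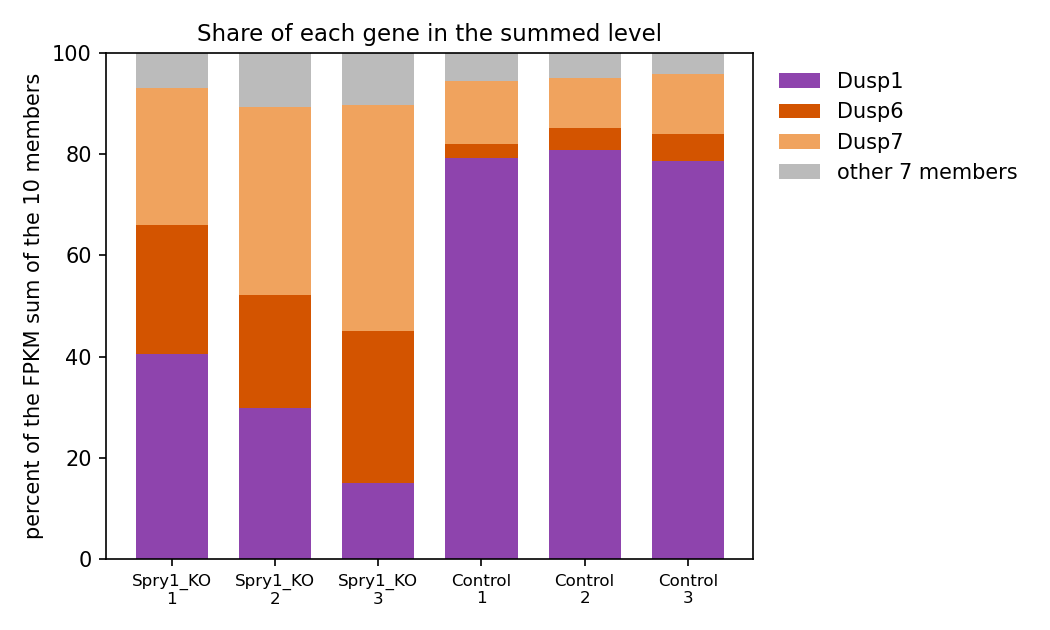
Share of Dusp1, Dusp6, Dusp7 and the other 7 members (y axis, percent) in the FPKM sum of the 10 members, 1 bar per sample, knockout (Spry1_KO) left and control right. Dusp1 held 15% to 40.5% in the knockout samples and 78.6% to 80.9% in the control samples.

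In the knockout, the order of levels ran Dusp7, Dusp1, Dusp6, Dusp5, Dusp16, Dusp8, Dusp4, Dusp9, Dusp2, Dusp10. There, the sample ranges of Dusp7 and Dusp1, of Dusp1 and Dusp6, and of Dusp9 and Dusp2 overlapped. In the control it ran Dusp1, Dusp7, Dusp6, Dusp5, Dusp16, Dusp8, Dusp4, Dusp10, Dusp2, Dusp9, and only the neighbours Dusp4 and Dusp10 overlapped. Dusp9 was thus the least abundant member of the control and ranked 8 in the knockout, while ranks 4 to 7 held the same genes in both genotypes.

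Immediate early genes, which like Dusp1 are induced within minutes of stimulation or tissue handling, were counted beside Dusp1. Of 15 such genes tested, 4 passed downward (24.4% of all tested genes did) and 11 did not pass, with a median log2 fold change of -0.93 against 0.03 over all tested genes. The log2 fold change was -2.65 for Klf2, -2.15 for Fosb, -1.32 for Jun and -1.10 for Btg2, with limma adjusted p of 0.0125, 0.027, 0.0332 and 0.0123. Klf2 had 1.35 to 1.70 FPKM in the knockout samples, against 7.13, 9.03 and 50.2 FPKM in the control samples. Without control replicate 3 the log2 fold change was -1.81 for Klf2 and -1.43 for Fosb. Fosb lost its call without the filter on low values (adjusted p of 0.0654) and without knockout replicate 1 (0.054) or 3 (0.0903). Jun lost it without the filter (0.0767), without knockout replicate 2 (0.059) or control replicate 1 (0.0521), 2 (0.0729) or 3 (0.083), and without control replicate 3 and knockout replicate 2 together (0.107). Fos had 592, 395 and 89.9 FPKM in the knockout samples, against 726, 920 and 1655 FPKM in the control samples (limma adjusted p of 0.0533), and Zfp36, which destabilises cytokine mRNA, had 107, 65.9 and 29.0 FPKM in the knockout samples, against 102, 133 and 233 FPKM in the control samples (0.0616). Within each genotype the samples ranked as they did for Dusp1 in 9 of the 15 genes (Btg2, Egr1, Fos, Ier2, Jun, Junb, Klf2, Nr4a1, Zfp36), where 3.90% of the other tested genes had that order. The order was looked at after the values had been seen. The part of these genes, or of tissue handling, in the Dusp1 difference was not tested.

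Genes switched on by ERK, other than the phosphatases, passed the test upward in 6 of 14 and downward in 2 of 14 tested, where 29.6% and 24.4% of all tested genes did, with a median log2 fold change of 0.44 against 0.03 over all tested genes. Fos and Egr1 stand in both lists. Etv4 and Etv5 encode transcription factors of the ETS family and Phlda1 is a growth factor response gene. Their log2 fold changes were 2.83, 1.37 and 2.33 (limma adjusted p of 8.69e-05, 0.000277 and 8.78e-05). Spry2, a Sprouty of the same feedback layer as Dusp6, fell by 0.93 (limma adjusted p of 0.00175). Etv4 had 23.2, 20.2 and 14.7 FPKM in the knockout samples, against 1.38, 1.69 and 2.48 FPKM in the control samples, so in both genotypes its samples ranked as those of Dusp1 did. The order of Dusp1 was found in 4 of the 14 ERK targets, namely Etv4, Myc and the shared Egr1 and Fos. That of Dusp6 was found in 2 of the 14 and in 0 of the 15 immediate early genes. Among the other tested genes, 3.90% and 3.02% had these orders. Melanocyte markers summed to 206 to 209 FPKM in the knockout samples and 10.4 to 13.7 FPKM in the control samples. Of these, 4 of 5 were higher without overlap (34.9% of tested genes were), Mitf overlapped, and none was at 0 throughout. Their part in the levels of Dusp4, Dusp6 and the ERK targets was not tested.

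**Figure D4:**
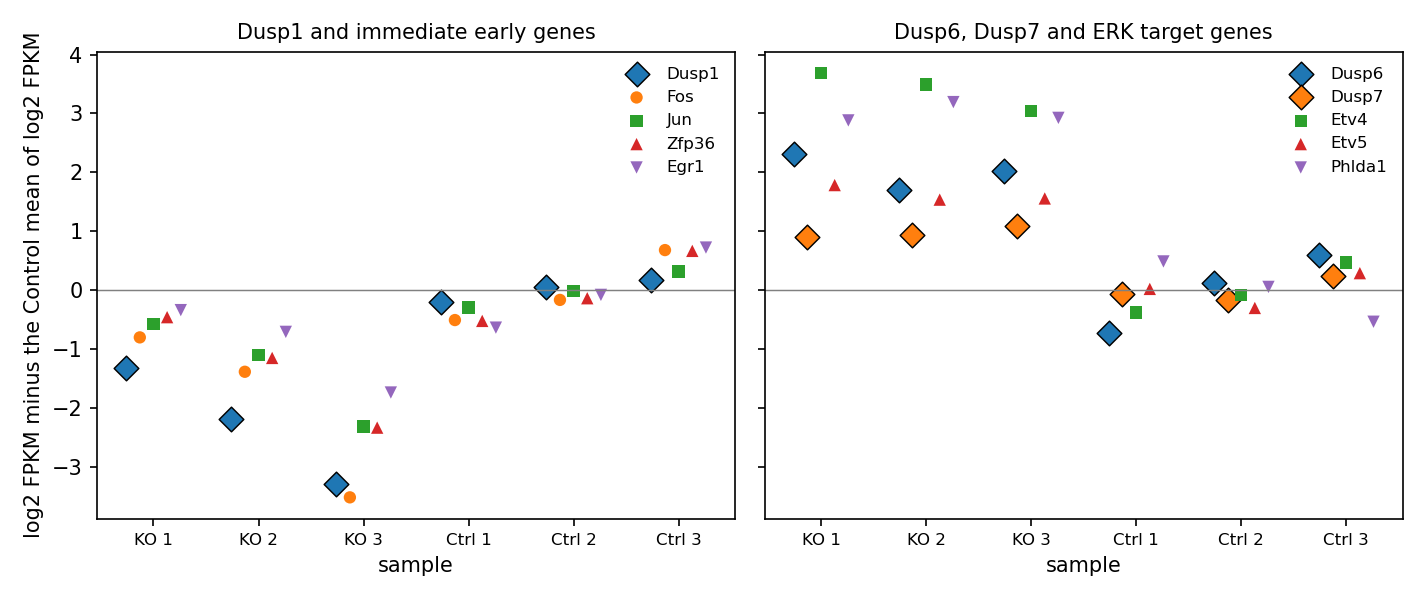
Log2 FPKM minus the control mean of log2 FPKM (y axis) in each sample (x axis, knockout samples left, control samples right) for Dusp1 with 4 immediate early genes, and for Dusp6 and Dusp7 with 3 ERK target genes. Dusp1, Fos, Jun, Zfp36 and Egr1 were lowest in knockout replicate 3 (Dusp1 42.1 FPKM), and Dusp6, Dusp7, Etv4, Etv5 and Phlda1 were above all controls in each knockout sample.

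The kinase genes of the cascades, whose products the phosphatases oppose, were counted in the same way. Of 6 genes of the ERK modules, 2 rose and 4 did not pass, a share near the 29.6% of all tested genes that rose. Map2k1, which encodes the ERK kinase MEK1, had 33.4, 29.6 and 29.0 FPKM in the knockout samples, against 12.96, 16.9 and 15.7 FPKM in the control samples (log2 fold change 0.97, SE 0.11; adjusted p = 0.000571 by limma). Map2k2 rose by 0.33, a call lost under TPM scaling (log2 fold change 0.06, adjusted p of 0.664) and after scaling to recovered reads (0.0735). Mapk3, a MAP kinase gene of this module, had a log2 fold change of -0.23 without passing (0.106 as limma adjusted p). Of 10 tested JNK and p38 module genes, 4 passed upward and 3 downward, also near the shares over all tested genes (29.6% and 24.4%). Mapk13, a p38 isoform of keratinocytes, rose by 0.79, Map2k3, which activates p38, by 0.64, and Mapk14, the main p38 isoform, by 0.36, the last of which was lost under TPM scaling (adjusted p of 0.406). Mapk12, another p38 isoform, abundant in skeletal muscle, fell by 0.85 (limma adjusted p of 0.00139). It was tested only because of its control level (means of 2.27 FPKM in the control and 0.819 FPKM in the knockout). The 5 skeletal muscle markers summed to 0.613 to 1.64 FPKM in the knockout samples and 11.8 to 48.0 FPKM in the control samples. Each was lower without overlap, as 29.4% of tested genes were, and the part of these markers in the Mapk12 difference was not tested.

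The atypical dual-specificity phosphatases, which are small relatives without the kinase-binding domain of the family, passed the test in both directions. Of 17 listed, 10 were tested, of which 2 passed upward, 2 downward and 6 did not pass, with a median log2 fold change of -0.10, where 29.6% of all tested genes passed upward and 24.4% downward. Dusp14 had 25.5, 27.9 and 26.5 FPKM in the knockout samples, against 13.3, 12.6 and 10.97 FPKM in the control samples (log2 fold change 1.06, SE 0.09, adjusted p = 0.00018 by limma). Dusp3, a phosphatase of ERK and JNK, rose by 0.58. It was tested only because of its knockout level (means of 1.75 FPKM in the knockout and 0.838 FPKM in the control). Dusp22 and Dusp12 fell by 0.40 and 0.37 (limma adjusted p of 0.013 and 0.0119), a call that Dusp22 lost without control replicate 3 and knockout replicate 2 together (0.0626). Of the 3 tyrosine phosphatases that also act on MAP kinases only Ptpn7 was tested, with a log2 fold change of -0.28 (limma adjusted p of 0.286).

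By the correlation of log2(FPKM + 1) over the 6 samples, the genes most like Dusp6 were Bap1, Sympk and Cdipt (Pearson r of 0.998, 0.997 and 0.997), and those most like Dusp1 were Flcn, Serac1 and Dclre1a (0.997, 0.994 and 0.994). These correlations largely carry the gap between the genotypes, and 0.188% of genes exceeded 0.99 with Dusp6 and 0.0768% with Dusp1. By the correlation of deviations from the genotype means, which leaves that gap out, they were Cyb561, Vdr and Arl3 for Dusp6 (0.997, 0.997 and 0.996) and Cdkn2d, Aifm1 and Atg2a for Dusp1 (0.997, 0.995 and 0.993). With this measure 0.0598% of genes exceeded 0.99 with Dusp6 and 0.0341% with Dusp1, and the genes named are the highest of all compared. The gene sets picked by the 2 measures did not overlap. Vdr, the vitamin D receptor, had 46.5, 42.5 and 44.7 FPKM in the knockout samples, against 19.3, 21.6 and 22.7 FPKM in the control samples. Cyb561 and Arl3 did not differ in this way, with log2 fold changes of -0.02 and -0.08 (limma adjusted p of 0.872 and 0.587).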

How the data were processed

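Back epidermis RNA was profiled in 3 knockout and 3 control samples, grouped by sample title, from libraries of 0.4 ug of total RNA. The authors deposited 1 table of FPKM values, with a column per sample. HISAT2 2.0.5, featureCounts 1.5.0-p3 and GRCm38 are named per the submitters' processing notes, and the sources used here name no annotation release, strand setting or FPKM formula. Gene types, positions and exon lengths came from GENCODE M21, which matched 54495 IDs. Recovered reads are FPKM times exon length over the smallest step of a sample, and 97.0% to 97.3% of them came out whole within 0.1 reads (20% by chance). Testing was limited to genes averaging 1 FPKM or more and done with limma 3.58.1 (R 4.3.3) on log2(FPKM + 1), with a trend, genotype as the only term and Benjamini-Hochberg adjustment over all of them. Alternatives were a pseudocount of 0.1, no filter, TPM, median-ratio and recovered-read scaling, limma-voom, a replicate block and samples left out. The procedure was tested on simulated data with far fewer changed genes than in these data. The simulated dispersion was the same for all genes, set by hand and not estimated from the samples. There it called 15 of 50 genes changed 1.5-fold, 47 of 50 changed 2-fold and 18 of 12394 unchanged genes. Named genes were all members, up to 4 called members of each list by lowest p (or 2 where none passed), and the 3 nearest by correlation; others (Fos, Egr1, Zfp36, Junb, Mapk3, Atf3, Fkbp5, Ergic1, Xist, Eif2s3y and genes named for sample order) were chosen after their values were seen. The members and lists were chosen with earlier results of these data known. No pair of replicates agreed within sampling noise (chi-square per gene 11 to 61.4). Promoter sequences came from RefSeq. Figures used matplotlib 3.10.9 under Python 3.11.15.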

Additional observations from a re-analysis of the deposited data

How the results depend on the processing

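Dusp1, Dusp2, Dusp6 and Dusp7 kept their direction and their call under all 14 alternatives run, and Dusp9 under the 13 in which it was tested. Their log2 fold changes ranged from -2.72 to -1.75 for Dusp1, 0.72 to 1.37 for Dusp2, 1.61 to 2.40 for Dusp6, 0.70 to 1.11 for Dusp7 and 1.25 to 2.95 for Dusp9. Dusp4 lost its call in 1 setting and Dusp16 in 4, as given above, so between 1 and 2 members were called lower when single samples were left out. The TPM scaling lowered the count of genes called higher to 2055, against the 3736 reported, raised that of genes called lower to 4470, against 3079, and moved the median log2 fold change of all genes by -0.25, and scaling to recovered reads, chosen after seeing the data, moved it by -0.11. On recovered reads limma-voom called 3494 genes higher and 3384 lower. Relative to the median, Dusp5 stood at 0.17 under both the TPM and the reported scaling. Dusp8 changed sign in several settings (-0.24 to 0.12) and was called in none. Same-numbered samples did not deviate together (r of -0.098, -0.111 and -0.125), so the replicate number was taken as a name only. With it as a replicate block 3216 genes were higher and 2618 lower, and no member changed its call, while Fosb (adjusted p of 0.0638) and Jun (0.0676) lost theirs. The members with the fewest reads were Dusp2, Dusp9 and Dusp10, with 59 to 93, 79 to 127 and 31 to 45 reads in the knockout samples and 28 to 32, 10 to 18 and 57 to 64 in the control samples.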

Other observations

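Glucocorticoid-responsive genes, a class to which Dusp1 also belongs, passed the test downward in 4 of 6 and upward in 1, where 24.4% and 29.6% of all tested genes did. Tsc22d3, an anti-inflammatory glucocorticoid target, had 31.5, 30.1 and 21.9 FPKM in the knockout samples, against 144, 97.1 and 59.8 FPKM in the control samples. By limma the log2 fold change was -1.74 (SE 0.31, adjusted p = 0.0034). Klf9 fell by 2.10, Per1, a gene of the circadian clock, fell by 1.13 and Sgk1, a kinase gene of the same class, rose by 0.94 on the log2 scale. Fkbp5, another target, had 14.1, 13.3 and 9.78 FPKM in the knockout samples and 15.04, 15.8 and 1.86 FPKM in the control samples, with control replicate 3 the lowest of all, without passing (adjusted p = 0.523 by limma).

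Of 6 p53 target genes, a class that has been linked to several Dusp genes, 1 rose and 4 fell, where 29.6% of all tested genes rose and 24.4% fell. Ccng1 rose by 0.87 on the log2 scale, and the log2 fold changes of Trp53inp1, Sesn2 and Bbc3 were -1.49, -0.58 and -0.62 (limma adjusted p of 0.000207, 0.0115 and 0.0205). Bbc3 lost its call without control replicate 1 (adjusted p of 0.0611) or 2 (0.0599).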
